A study of Mus musculus with 30 samples.

Results

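The genes described here are those named for proteins of the mitochondrial ribosome. They are all genes on the array with a probe set that carries a single symbol beginning with Mrpl or Mrps and a number, each read by its probe set of highest mean, which gave 76 genes of the 18193 with a single-symbol probe set. By name 47 belong to the large subunit (Mrpl) and 29 to the small subunit (Mrps). All 76 were among the 12183 genes tested, and each representative probe set read above the median of the whole table on all 30 arrays. The 76 genes had 156 single-symbol probe sets in all, and some of the others did not pass the filter on low values. Mrpl30 and Mrpl53 were represented only on probe sets that carry several symbols and are not included.

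Gene expression was measured on 30 Affymetrix arrays, 1 per culture of resting B cells enriched from mouse spleen (C57BL/6, B1-8i), in 10 groups of 3, each replicate from an individual mouse. KO cells came from Irf4-/- mice that carry an Irf4 gene induced by doxycycline (DOX), and WT cells came from Irf4+/+ mice. Which promoter drives the inducible gene was not stated in the labels. KO cells were taken unstimulated at day 0 and after 1 or 3 days of culture with 0, 16 or 100 ng/mL DOX (zero, low and high DOX), and WT cells were taken unstimulated at day 0 and after 1 or 3 days of culture. All cultures were stimulated with CD40L, IL-2, IL-4 and IL-5. WT cultures had no DOX, so induction of Irf4 and the presence of the drug cannot be told apart in the dose comparisons.

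The mitochondrial ribosome translates the few proteins encoded in mitochondrial DNA, all of them subunits of the oxidative phosphorylation complexes. Its own proteins are encoded in the nucleus, made on cytosolic ribosomes and imported, so it is assembled from the products of both genomes. Resting lymphocytes that are activated grow in size and expand their mitochondria before they divide. Doxycycline itself inhibits bacterial ribosomes and, through the same mode of action, mitochondrial ribosomes.

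Array medians lay between 171 and 199.7 intensity units. The Irf4 probe set that followed DOX read, on the log2 scale, 12.68 to 13.10 in KO high DOX at day 1, but 10.77 on the array labelled KO zero DOX day 1 replicate 2, against 7.84 and 7.80 on the other zero DOX arrays, and 7.69 on the array labelled KO low DOX day 1 replicate 2, against 11.17 and 10.89 on the other low DOX arrays. These 2 arrays go against their doxycycline labels, and the counts of members and the leading values in comparisons that use them are given with and without both. At day 3 the same set read 7.34 to 7.68 with zero DOX, 12.94 to 13.09 with low DOX and 13.53 to 13.66 with high DOX, against 7.23 to 7.39 in WT. In WT cells it read 7.64 to 7.92 at day 1 and 7.96 to 8.07 at day 0. The other Irf4 set read 11.10 ± 0.293 in KO zero DOX at day 3, against 10.82 ± 0.052 in WT at day 3, and 12.65 ± 0.202 in KO at day 0, against 13.17 ± 0.043 in WT (SD, n = 3). By their means neither set read higher in WT than in KO zero DOX at day 3, so the Irf4 readings there do not check the genotype labels, and where the sets lie relative to the deletion was not given in the labels. The 3' minus 5' log2 difference of the Gapdh control sets was 0.25 on KO day 0 replicate 2 and -0.083 to 0.044 on the other 29 arrays. Xist read 6.91 to 7.25 on KO replicates 1 and 2 and 12.80 to 13.52 on KO replicate 3 and all WT arrays, so low Xist occurred only in KO. The counts for KO zero DOX against WT are also given with a term for sex. Those for KO high DOX against WT and for the interactions of genotype and day are given without it. Some KO groups also carried more of other cells' transcripts: the summed intensity of 10 myeloid marker genes was 7130 to 15899 in KO day 0, against 3244 to 3522 in WT day 0.

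Of 73 promoter windows of the members, 36 held at least 1 of 3 short motifs that have been described in promoters of nuclear genes for mitochondrial proteins, and 5 windows are shown as examples of each motif, of a start region shared by a pair of members, and of a window with none (Mrps6, the member with the largest day 1 rise in WT). Windows of 300 bases, 250 before and 50 after the RefSeq start (GRCm38.p6), were found for 67 of the 76 genes, 73 windows in all. Both strands were searched, and the motifs were chosen after their shares had been seen. The ETS-type motif CCGGAAG was in 34.2% of the members' windows, against 8.86% of all 32851 windows. The NRF1-type motif, GCGCA and GCGC with any base between them, was in 16.4%, against 4.60% of all windows. The YY1-type motif, AAGAT directly followed by GGCGG, was in 6.85%, against 0.852%. Any of the 3 was in 49.3% of the members' windows and 13.1% of all windows. The E-box CACGTG, the core sequence bound by Myc, was in 9.59% of the members' windows and 7.15% of all, and TATAAA in 6.85% and 13.6%. A match is a match of letters and not a shown site of binding. The sequences below run 5' to 3' along the gene's strand, with the matched motif in capitals.
Mrps22, chr9:98601630-98601929, minus strand, ETS-type motif: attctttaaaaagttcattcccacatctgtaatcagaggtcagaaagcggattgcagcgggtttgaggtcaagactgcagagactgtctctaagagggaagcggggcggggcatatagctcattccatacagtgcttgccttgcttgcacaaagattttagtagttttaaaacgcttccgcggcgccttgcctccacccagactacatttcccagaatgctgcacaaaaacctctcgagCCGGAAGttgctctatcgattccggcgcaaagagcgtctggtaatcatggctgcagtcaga
Mrpl12, chr11:120484387-120484686, plus strand, NRF1-type motif: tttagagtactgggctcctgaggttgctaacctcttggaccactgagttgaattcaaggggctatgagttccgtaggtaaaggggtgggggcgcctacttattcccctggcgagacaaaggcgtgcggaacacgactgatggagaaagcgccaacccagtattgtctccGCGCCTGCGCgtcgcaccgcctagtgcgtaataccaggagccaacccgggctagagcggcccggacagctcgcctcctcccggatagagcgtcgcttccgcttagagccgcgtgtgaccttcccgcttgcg
Mrps11, chr7:78782881-78783180, plus strand, YY1-type motif read on the other strand: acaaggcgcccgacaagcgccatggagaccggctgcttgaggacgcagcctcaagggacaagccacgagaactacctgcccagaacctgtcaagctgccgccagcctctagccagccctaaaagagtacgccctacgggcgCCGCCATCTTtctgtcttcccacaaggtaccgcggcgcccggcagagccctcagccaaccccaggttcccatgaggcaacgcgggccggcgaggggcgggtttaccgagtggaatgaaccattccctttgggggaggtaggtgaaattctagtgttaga
Mrpl46, chr7:78783040-78783339, minus strand, TATAAA: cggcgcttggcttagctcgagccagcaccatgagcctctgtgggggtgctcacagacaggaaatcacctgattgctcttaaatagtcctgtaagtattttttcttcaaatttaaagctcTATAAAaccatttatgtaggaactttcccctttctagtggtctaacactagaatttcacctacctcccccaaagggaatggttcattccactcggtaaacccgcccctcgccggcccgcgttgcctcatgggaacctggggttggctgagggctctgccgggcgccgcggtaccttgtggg
Mrps6, chr16:92058086-92058385, plus strand, none of these motifs: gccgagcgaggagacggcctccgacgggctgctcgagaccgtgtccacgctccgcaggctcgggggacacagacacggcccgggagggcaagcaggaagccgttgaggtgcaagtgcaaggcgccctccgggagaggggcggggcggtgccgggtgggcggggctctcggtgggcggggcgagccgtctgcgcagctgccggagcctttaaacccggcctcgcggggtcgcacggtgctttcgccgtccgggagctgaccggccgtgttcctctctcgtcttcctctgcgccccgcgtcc

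The Mrps11 and Mrpl46 windows overlap on opposite strands, so a small and a large subunit protein are encoded head to head. In all, 25 of the 73 windows (34.2%) overlapped a window on the other strand, against 10.8% of all windows. The median day 1 difference in WT cells was 0.92 (log2) in the 36 genes with an ETS-, NRF1- or YY1-type match and 1.24 in the 31 genes with a window and no match. Of 18 tested genes outside the family that lie head to head with a member, 9 rose and 8 fell in WT cells at day 1, with a median of 0.12. Named after their values were seen, Klc4, beside Mrpl2, fell by 0.89, and Ska3, beside Mrpl57, rose by 1.80.

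Almost the whole family rose within a day of stimulation. In WT cells 74 of 76 members rose between day 0 and day 1 and none fell, with a median difference of 1.03 on the log2 scale (2.05-fold), where a gene is called changed at an adjusted p under 0.05 in limma. Of all genes tested, 33.9% rose and 47.6% fell in that comparison, 81.5% in all, and their median was -0.15. The quartiles of the members were 0.67 and 1.33, and 39 more than doubled, with the share of all genes that more than doubled not given. Split by name, 45 of 47 Mrpl genes rose, with a median of 0.95, and 29 of 29 Mrps genes, with a median of 1.04. The Mrps genes include Mrps18a and Mrps36, which have been placed outside the small subunit (below). In bulk RNA a larger amount of a transcript per cell and a larger share of cells that carry it cannot be told apart, and equal RNA was put on each array, so differences are relative to the rest of the transcriptome. The 3' minus 5' log2 difference of the Actb control sets also moved with the day, at 0.105 to 0.170 on the 12 day 1 arrays, against 0.183 to 0.252 on the 6 day 0 arrays. The summed intensity of 6 plasma cell genes, Irf4 among them, was 12696 to 14569 in WT at day 1, against 22464 to 28415 in WT at day 0. The Irf4 set that did not follow DOX read 11.72 in WT at day 1, against 13.17 in WT at day 0. The part of the Actb shift or of plasma cells in the rise was not tested.

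**Figure D1:**
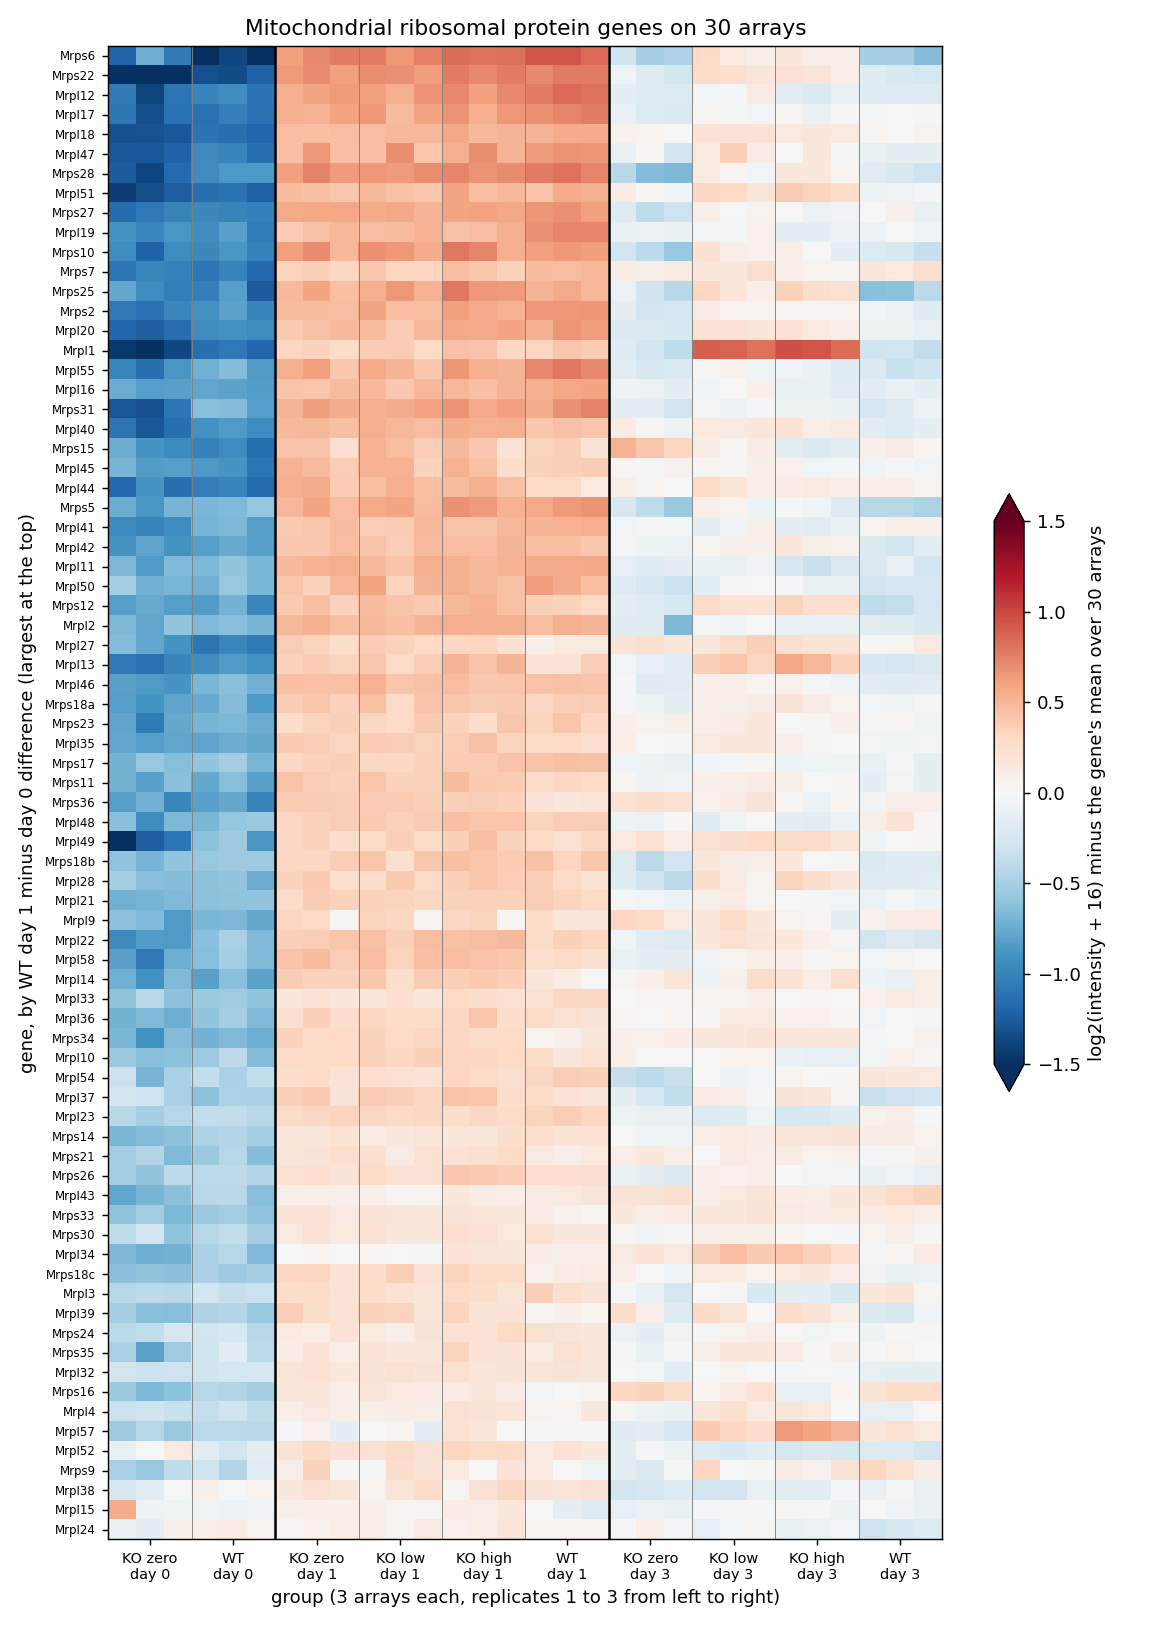
Each row is 1 of the 76 genes and each column 1 of the 30 arrays in 10 groups of 3. Colour gives the log2 value minus that gene's mean over the 30 arrays, from -1.5 (blue) to 1.5 (red), with rows sorted by the WT difference between day 1 and day 0. Day 0 arrays are low, day 1 arrays high and day 3 arrays between in nearly every row.

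The median member, expressed as deviation from its mean over all arrays, followed the day closely. It stood at -0.72, -0.80 and -0.72 on the KO day 0 arrays and at -0.69, -0.62 and -0.72 on the WT day 0 arrays. At day 1 it was 0.36, 0.36 and 0.34 in KO zero DOX and 0.32, 0.33 and 0.31 in WT. At day 3 it was -0.041, -0.082 and -0.10 in KO zero DOX and -0.071, -0.044 and -0.067 in WT. The days did not overlap in either genotype. KO and WT arrays overlapped at days 0 and 3, and at day 1 the KO arrays lay just above the WT arrays. These values were not centred by array. Gene by gene, the members' median difference between KO zero DOX and WT at day 1 was -0.013, against 0.073 over all genes. Of the 76 members, 44 were lower in KO by any amount.

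The largest rise belonged to Mrps6, a small subunit protein whose bacterial counterpart is bS6. It read 11.13, 11.13 and 11.03 on the WT day 1 arrays, against 8.69, 8.82 and 8.59 at day 0, a difference of 2.40 (SE 0.086, adjusted p = 1.3e-17). A second probe set of Mrps6 rose by 2.49. Mrps22, a mitochondria-specific small subunit protein, read 11.41, 11.47 and 11.47 at day 1, against 9.37, 9.35 and 9.48 at day 0, a difference of 2.05 (SE 0.050, adjusted p = 1.7e-20). Mrpl12, the stalk protein that also binds the mitochondrial RNA polymerase, read 12.47, 12.53 and 12.51 at day 1, against 10.69, 10.76 and 10.58 at day 0 (1.83, SE 0.064). In all 3 genes every day 1 array lay far above every day 0 array, but the largest changes were named only among genes whose arrays did not overlap. Mrpl17 and Mrpl18, both of the large subunit, followed with 1.82 and 1.68.

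Members with particular roles rose too. Mrpl10, which anchors Mrpl12 in the stalk, rose by 0.76 and Mrpl58, a peptidyl-tRNA hydrolase that became part of the large subunit, by 0.86, although the mean of all its probe sets was not called. The 3 paralogs Mrps18a, Mrps18b and Mrps18c, of which structures place Mrps18a in the large subunit, rose by 1.10, 0.94 and 0.61. Mrps12 and Mrps7, counterparts of bacterial proteins of the decoding region and the head of the small subunit, rose by 1.17 and 1.57. The smallest rises of these named members were 0.58 for Mrpl3 and 0.46 for Mrps35.

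Mrpl15 and Mrpl24 did not pass the test in WT cells. The probe set that represents Mrpl15 read 12.40, 12.26 and 12.20 at day 1, against 12.34, 12.31 and 12.35 at day 0 (-0.044, SE 0.097, adjusted p = 0.68). Of its 6 other tested sets, however, 5 rose, by 0.62 to 1.63, and 1 fell by 1.06. Mrpl24 read 12.13, 12.16 and 12.15 at day 1, against 12.19, 12.22 and 12.16 at day 0 (-0.045, SE 0.053, adjusted p = 0.44). Over the family, 36 members had 63 further tested probe sets, of which 41 moved the same way as the representative set and 8 the opposite way, in Mrpl1, Mrpl11, Mrpl21, Mrpl51, Mrpl54, Mrpl57, Mrpl58 and Mrps9. For Mrpl1 the representative set rose by 1.51, while the others gave -0.099 and -0.76.

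KO cells without DOX showed the same rise. Here 75 members rose at day 1 and none fell (39.8% and 30.1% of all genes, 69.8% in either direction), with a median of 1.14 against 0.062 over all genes. With both arrays that go against their labels left out, 74 rose and none fell, with a median of 1.14. Mrps22 read 11.34, 11.40 and 11.30 at day 1, against 9.14, 9.09 and 9.19 at day 0, a difference of 2.21 (SE 0.050, adjusted p = 6e-21). Mrps28, Mrpl1, Mrps31 and Mrpl51 followed with 1.93, 1.80, 1.79 and 1.78. Without both arrays these 5 differences were 2.18, 1.89, 1.79, 1.76 and 1.77, and all 5 remained called. The WT and KO comparisons share no arrays, and 74 members rose in both.

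The size of the rise differed between genotypes for 22 members by the interaction of genotype and day. It was larger in KO for 19 and smaller for 3 (32.4% and 11.5% of all genes), with a median of 0.083, below the all-gene median of 0.13. With each array centred on its median, which moved the all-gene median to -0.045, the split turned to 2 larger and 9 smaller, and without both day 1 arrays it was 12 and 3. Shares of all genes with arrays centred are not given, here or below, so centred splits show only how the counts depend on centring. Mrpl49, a large subunit protein, rose by 0.62 more in KO (SE 0.11, adjusted p = 0.00015), and Mrpl58 by 0.44 more. Mrps6 rose by 0.70 less in KO (SE 0.12, adjusted p = 0.00014), Mrpl19 by 0.29 less and Mrps7 by 0.21 less. These 5 calls held with centring, whereas those of Mrps31 and Mrpl22 did not. Without both day 1 arrays the 5 differences were 0.60, 0.41, -0.71, -0.28 and -0.22, and all 5 remained called.

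**Figure D2:**
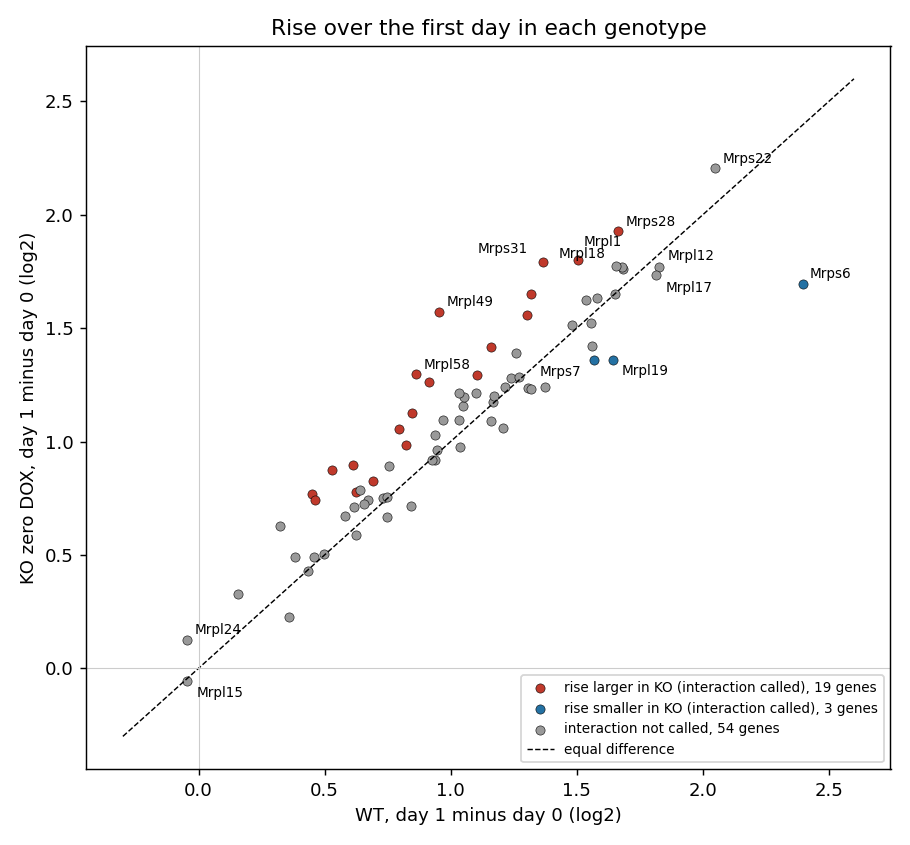
Each point is 1 of the 76 genes, with the WT difference between day 1 and day 0 (log2) on the horizontal axis and the KO zero DOX difference on the vertical axis. Points lie along the dashed line of equal difference, with 19 genes rising more in KO (red), 3 rising less (blue) and 54 not called (grey).

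By day 3 most members had come down part of the way. In WT cells 63 were lower at day 3 than at day 1 and 3 were higher (26.2% and 43.3% of all genes, 69.4% in either direction), with a median of -0.37 against 0.12 over all genes. In KO zero DOX 64 were lower and 2 higher (26.7% and 25.9%, 52.6% in all; median -0.42 against -0.016), and 60 lower and 2 higher without both arrays that go against their labels. Against day 0, in contrast, 72 members were still higher in WT at day 3 and 1 was lower (33.4% and 31.9%, 65.3% in all; median 0.60). In KO zero DOX 71 were higher than at day 0 and 1 was lower (36.0% and 26.4%, 62.4% in all; median 0.71). That 1 was Mrpl15 (-0.24, adjusted p = 0.033), for which the mean of all its probe sets was higher by 0.22.

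Mrps6 fell most in WT cells, to 9.69, 9.69 and 9.53 at day 3, against 11.13, 11.13 and 11.03 at day 1 (-1.46, SE 0.086, adjusted p = 7.1e-13). Mrps25, Mrps5, Mrpl55 and Mrpl12 fell by 1.07, 1.06, 1.02 and 1.01. Their day 3 arrays all lay below their day 1 arrays, which was a condition for being named. In KO zero DOX the largest falls were those of Mrps28, which read 10.40, 10.17 and 10.15 at day 3, against 11.43, 11.56 and 11.46 at day 1 (-1.24, SE 0.064, adjusted p = 3.5e-13), and of Mrps6, Mrps10, Mrps5 and Mrps27, which fell by 1.12, 1.02, 0.91 and 0.87. Without both arrays that go against their labels these 5 differences were -1.20, -1.11, -0.97, -0.87 and -0.87, all called. Mrps16, a small subunit protein, went the other way in both genotypes. It was higher at day 3 than at day 1 by 0.25 in WT cells (adjusted p = 6.6e-05) and by 0.16 in KO zero DOX (adjusted p = 0.0053; 0.18 without both arrays), although the WT call was lost when arrays were centred, as was that of Mrpl57 (0.20), and that of Mrpl43 (0.12) reversed.

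Some members stayed more than 2-fold above day 0 at day 3, 14 in KO zero DOX and 8 in WT, with the share of all genes that did so not given. In WT cells those furthest above were Mrps7 (1.28), Mrpl18 (1.17), Mrpl44 (1.13), Mrpl27 (1.11) and Mrps15 (1.10), and Mrpl24 was 0.33 lower than at day 0. In KO zero DOX they were Mrpl49 (1.43), Mrps22 (1.38), Mrpl51 (1.36), Mrpl18 (1.34) and Mrps15 (1.27). By the interaction at day 3, the rise over day 0 was larger in KO for 18 members and smaller for 4 (16.0% and 9.95% of all genes), and 10 and 2 with arrays centred. Mrpl49 gained 0.76 more in KO (SE 0.11, adjusted p = 2.3e-05), Mrps31 0.51, Mrpl40 0.46, Mrpl24 0.41 and Mrpl1 0.39. Mrpl54, a large subunit protein, gained 0.43 less (adjusted p = 0.00058). The call of Mrpl54 was lost when its probe sets were averaged.

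In the DOX-treated cultures the fall from day 1 to day 3 was present as well. With high DOX 62 members were lower at day 3 and 3 were higher (27.0% and 23.0% of all genes; median -0.37), and with low DOX 56 were lower and 3 higher (24.5% and 20.9%; median -0.27), 54 lower and 3 higher without both arrays that go against their labels. Those that were higher at each dose were large subunit genes: Mrpl1 (0.52 with high and 0.51 with low DOX), Mrpl57 (0.46 and 0.37) and Mrpl34 (0.16 and 0.40). Mrpl12 was lower at day 3 by 0.86 with high DOX and 0.58 with low DOX. The largest fall with low DOX was that of Mrps28 (-0.62). Mrpl11 and Mrps31 were lower at both doses, by 0.78 and 0.70 with high DOX and by 0.57 and 0.60 with low DOX. Without both arrays the low DOX differences of Mrpl1, Mrpl57, Mrpl34, Mrpl12, Mrps28, Mrpl11 and Mrps31 were 0.52, 0.41, 0.40, -0.61, -0.64, -0.60 and -0.61, all called.

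After 3 days, DOX-treated KO cells carried more of a good part of the family than untreated KO cells. With low DOX 41 members were higher than with zero DOX and 2 were lower, against 17.6% and 18.2% of all genes, 35.8% in either direction, with a median of 0.14 against -0.033 over all genes. With high DOX 34 were higher and 7 lower, against 24.4% and 24.2% of all genes, 48.6% in either direction, with a median of 0.10 against 0.0037. Both comparisons use the same zero DOX arrays. Most differences were small, and 1 member, Mrpl1, more than doubled at each dose. With arrays centred the splits were 40 and 2 with low DOX and 25 and 7 with high DOX.

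Mrpl1, which forms part of the L1 stalk of the large subunit, stood furthest out. It read 10.39, 10.29 and 10.19 with zero DOX, 11.46, 11.44 and 11.37 with low DOX, and 11.53, 11.50 and 11.40 with high DOX, against 10.26, 10.28 and 10.20 in WT at day 3. Every low and high DOX array lay above every zero DOX and WT array. Separation of the DOX arrays from the zero DOX arrays was a condition for being named. The difference from zero DOX was 1.14 with low DOX (SE 0.060, adjusted p = 1.4e-12) and 1.19 with high DOX (SE 0.060, adjusted p = 1.2e-13). A second probe set gave 0.58 and 0.70, both called, and the other gave -0.13 and -0.13, neither called. At day 1 the same gene had read 10.89, 10.91 and 10.85 with zero DOX, 10.94, 10.95 and 10.87 with low DOX, and 11.01, 10.99 and 10.88 with high DOX.

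Mrpl57 and Mrps28 were next with high DOX. Mrpl57, a mitochondria-specific large subunit protein, read 11.30, 11.34 and 11.23 with zero DOX, 11.88, 11.80 and 11.75 with low DOX and 12.13, 12.08 and 11.99 with high DOX at day 3, with no overlap between the 3 doses. The difference from zero DOX was 0.52 with low and 0.77 with high DOX (SE 0.062, adjusted p = 9.9e-07 and 4.4e-10). Its other probe set gave -0.049 and 0.079, neither called. Mrps28, a small subunit protein, read 10.40, 10.17 and 10.15 with zero DOX, 10.95, 10.83 and 10.78 with low DOX and 10.98, 10.98 and 10.86 with high DOX, a difference from zero DOX of 0.62 with low and 0.70 with high DOX (SE 0.064, adjusted p = 1.1e-07 and 3.5e-09). The low and high DOX arrays of Mrps28 overlapped each other but not the zero DOX arrays. For Mrpl57 and Mrps28 separation from the zero DOX arrays was a condition for being named.

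Further small subunit genes rose with low DOX by similar amounts, Mrps6 by 0.60 and Mrps10 by 0.55, and with high DOX the large subunit genes Mrpl13 and Mrpl28 rose by 0.58 and 0.54. Mrps12 rose by 0.42 with low and 0.47 with high DOX, and Mrps18b by 0.42 and 0.36. Its paralog Mrps18a rose by 0.17 and 0.19. Mrps18c rose by 0.13 with high DOX, a call lost when arrays were centred. Mrpl58 rose by 0.16 and 0.19, but the mean of its probe sets was not called at either dose. Mrpl12 rose by 0.20 with low DOX, a call lost without KO low DOX replicate 3, and Mrpl10 fell by 0.14 with high DOX (adjusted p = 0.015), a call lost without KO zero DOX replicate 1.

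Mrps15 and Mrps16, both small subunit proteins with bacterial counterparts, fell with low and with high DOX. Mrps15 read 12.10, 11.99 and 11.91 with zero DOX, 11.70, 11.61 and 11.70 with low DOX and 11.42, 11.37 and 11.42 with high DOX. The doses did not overlap, which was a condition for being named. The difference of Mrps15 from zero DOX was -0.33 with low DOX (SE 0.072, adjusted p = 0.00095) and -0.60 with high DOX (SE 0.072, adjusted p = 2.6e-07). Its other probe sets fell as well, by 0.41 and 0.46 with high DOX. Mrps16 read 12.22, 12.25 and 12.19 with zero DOX, 11.94, 12.04 and 12.12 with low DOX and 11.80, 11.80 and 11.93 with high DOX, a difference of -0.19 and -0.38. The remaining falls with high DOX were those of Mrps36 (-0.25), a protein since assigned to the alpha-ketoglutarate dehydrogenase complex, and of Mrpl9 (-0.27), Mrpl52 (-0.16) and Mrpl10, together with Mrpl23 (-0.12), named after its value was seen. The call of Mrpl9 was lost when its probe sets were averaged.

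**Figure D3:**
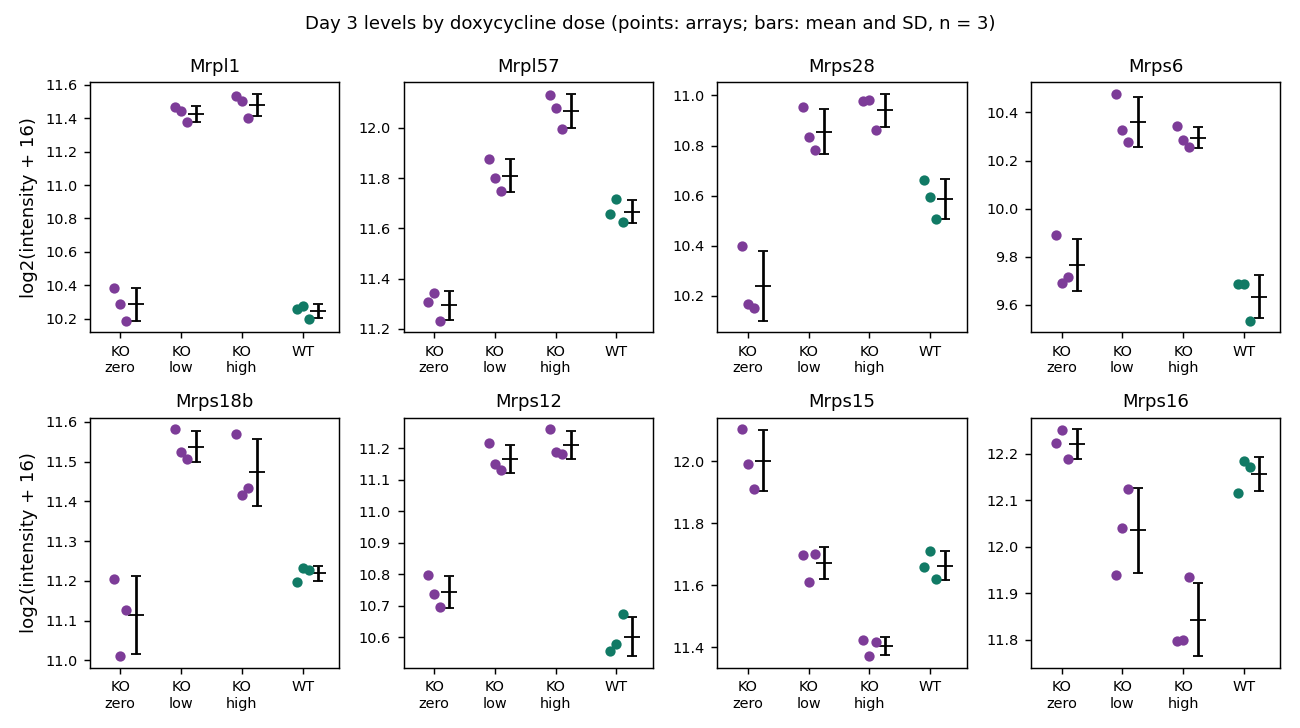
Each panel shows 1 gene at day 3 in KO zero, low and high DOX and in WT, with a point per array (log2 of intensity plus 16) and bars at the mean and SD of 3 arrays. Mrpl1, Mrpl57, Mrps28, Mrps6, Mrps18b and Mrps12 are higher with DOX than without, and Mrps15 and Mrps16 are lower.

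Between the 2 doses few members differed. High DOX was above low DOX in 1 member and below it in 8, against 6.69% and 6.09% of all genes, with a median of -0.057 against 0.016. Mrpl57 was higher by 0.26 with high DOX (SE 0.062, adjusted p = 0.0065), and Mrps15 (-0.27), Mrpl12 (-0.20), Mrps16 (-0.19), Mrpl11 (-0.18) and Mrpl10 (-0.15) were lower. These counts rest on single arrays. Without KO low DOX replicate 3 they were 1 higher and 0 lower, and without any 1 of KO high DOX replicates 1, 2 and 3 or KO low DOX replicate 2 between 3 and 5 members were called.

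Markers of the cells in culture moved with dose at day 3. The summed intensity of 6 plasma cell genes, Irf4 among them, was 9242 to 10451 with zero DOX, 20595 to 26984 with low DOX and 29437 to 32770 with high DOX, and 5 of them rose with high DOX while none fell. That of 5 B cell genes was 50413 to 61478, 40448 to 44552 and 32667 to 37800, and all 5 fell with high DOX. The summed intensity of 10 myeloid genes was 7075 to 13294 with zero DOX, 3291 to 5327 with low DOX and 2279 to 2654 with high DOX. For 6 NK cell genes it was 4979 to 9435, 3848 to 6733 and 1036 to 1814. No marker was at the lowest deposited value. Irf4 entered the plasma cell sum by its set of higher mean, the one that did not follow DOX. At day 3 that set read 11.10, 11.17 and 11.19 on average with zero, low and high DOX. The part of these cell types in the members' differences was not tested.

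After 1 day, few members differed between doses. With high DOX 1 member was higher than with zero DOX and none was lower, against 1.26% and 1.49% of all genes, 2.75% in all, and with low DOX none of the 76 and none of all 12183 genes was called by limma, where 34 genes and 0 members had an unadjusted p under 0.05. The 1 member was Mrps26, a small subunit protein, which read 11.70, 11.69 and 11.65 with high DOX, against 11.53, 11.55 and 11.49 with zero DOX (0.16, SE 0.043, adjusted p = 0.049). This call was lost when any 1 of the 6 arrays compared was left out. With the array labelled zero DOX day 1 replicate 2 and its low DOX counterpart left out, no member was called at either dose.

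KO cells without DOX differed from WT cells by small amounts at each day, in both directions. At day 0, 3 members were higher and 25 lower in KO (13.1% and 18.4% of all genes, 31.5% in either direction), with a median of -0.084 against -0.050 over all genes. At day 1, 10 were higher and 11 lower (33.9% and 15.7%, 49.6% in all), with a median of -0.013 against 0.073. At day 3, 9 were higher and 10 lower (19.0% and 15.8%, 34.9% in all), with a median of 0.018 against 0.0043. With arrays centred the splits were 3 and 14 at day 0, 0 and 38 at day 1 and 6 and 7 at day 3. Centring shifts all genes on an array alike, and the shares of all genes with it are not given. With a term for sex they were 3 and 30, 9 and 15, and 6 and 11.

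In resting cells the largest differences were in Mrpl49 and Mrps31. Mrpl49 read 9.04, 9.29 and 9.44 in KO, against 9.91, 9.98 and 9.65 in WT, a difference of -0.59 (SE 0.077, adjusted p = 4.1e-06), and its other probe set gave -0.32. Mrps31, a mitochondria-specific small subunit protein, read 8.91, 8.89 and 9.11 in KO, against 9.56, 9.55 and 9.38 in WT (-0.53, SE 0.064, adjusted p = 2.1e-06). Neither overlapped between genotypes at day 0, which was a condition for being named. At day 1 Mrpl49 read 10.83, 10.87 and 10.79 in KO, against 10.82, 10.75 and 10.83 in WT. Mrps28 (-0.37), Mrpl1 (-0.35), Mrps35 (-0.32) and Mrpl58 (-0.27) were also lower. Mrps6 was higher in KO, at 8.99, 9.45 and 9.13, against 8.69, 8.82 and 8.59 in WT (0.49, SE 0.086, adjusted p = 0.00014), as were Mrpl27 (0.27) and Mrpl52 (0.20). In the same groups 9 of 10 myeloid genes and 4 of 5 NK cell genes were higher in KO, and 4 of 6 T cell genes, and 4 of 6 plasma cell genes were lower. The summed intensity of the plasma cell genes, Irf4 among them, was 9602 to 12547 in KO day 0, against 22464 to 28415 in WT day 0. The Irf4 set that did not follow DOX read 12.65 in KO day 0, against 13.17 in WT day 0. The part of Irf4 in this sum, and of these cell types in the differences, was not tested. Without KO day 0 replicate 2, whose Gapdh ratio stood apart, 4 members were higher and 17 lower.

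At day 1 the members lower in KO were led by Mrpl19, a large subunit protein, at 11.19, 11.24 and 11.30 in KO, against 11.49, 11.54 and 11.53 in WT (-0.28, SE 0.049, adjusted p = 1e-04). Mrpl12 (-0.22), Mrpl55 (-0.22), Mrps6 (-0.21) and Mrps2 (-0.18) followed. The 5 largest increases in KO, those of Mrpl14 (0.26), Mrpl44 (0.25), Mrpl39 (0.24), Mrps34 (0.22) and Mrpl27 (0.20), were all lost when arrays were centred. Relative to the median of all genes the members' median was lower by 0.086 in KO. Centring cannot change this gap, because it shifts all genes on an array by the same amount. Without both arrays that go against their labels 7 were higher and 9 lower, the calls of the other 9 genes named here remained, and that of Mrps6 was lost (-0.22, adjusted p = 0.075). Without KO zero DOX replicate 1 the split was 7 and 6. In the same groups 9 of 10 myeloid, 3 of 5 NK cell and 5 of 6 T cell genes were higher in KO and none was lower. The summed intensity of the myeloid genes was 4995 to 6730 in KO zero DOX day 1, against 2076 to 2360 in WT day 1. That of the NK cell genes was 1230 to 1422 in KO, against 661 to 935 in WT, and that of the T cell genes 1626 to 1791 in KO, against 1181 to 1256 in WT. Their part in these differences was not tested.

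At day 3 the largest difference was that of Mrpl54, at 10.42, 10.37 and 10.44 in KO zero DOX, against 10.95, 10.93 and 10.92 in WT (-0.52, SE 0.059, adjusted p = 3.1e-07). Its other probe set gave 0.015 (adjusted p = 0.90). KO cells with low DOX read 10.76, 10.69 and 10.72 and with high DOX 10.81, 10.77 and 10.81, between zero DOX and WT. Mrpl57 (-0.37), Mrps9 (-0.35), Mrps28 (-0.35), Mrps27 (-0.28) and Mrpl3 (-0.26) were also lower in KO zero DOX, with another probe set of Mrps9 moving the opposite way. Mrps15 (0.34), Mrpl24 (0.27), Mrps36 (0.20), Mrpl40 (0.19) and Mrpl42 (0.16) were higher. Without WT replicate 1 the split was 4 higher and 8 lower. In the same groups 5 of 6 plasma cell genes were lower and 7 of 10 myeloid genes higher in KO zero DOX. The summed myeloid genes were 7075 to 13294 in KO zero DOX, against 2474 to 2748 in WT. The NK cell genes summed to 4979 to 9435, against 1479 to 2171, and 4 platelet genes to 2481 to 3473, against 931 to 1363. The plasma cell genes, Irf4 among them, summed to 9242 to 10451, against 26113 to 27041. The part of these cell types was not tested.

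KO cells with high DOX were then set against WT cells of the same day. At day 1, 15 members were higher and 2 lower (29.6% and 9.76% of all genes; median 0.044 against 0.073), but with arrays centred none was higher and 18 were lower. The shares of all genes with arrays centred are not given. Without KO high DOX replicate 2 only 5 were higher and 1 lower, and without WT replicate 1 or 2 there were 11 calls each. Here the summed myeloid genes were 3298 to 4410 in KO high DOX, against 2076 to 2360 in WT, and their part was not tested. At day 3, 36 were higher and 9 lower (22.1% and 19.0%; median 0.088 against 0.011), and 26 and 8 with arrays centred. Mrpl1 was higher by 1.23 (adjusted p = 1.5e-13) and Mrps25, Mrpl13, Mrps6 and Mrps12 by 0.82, 0.71, 0.66 and 0.61. Mrps25 read 10.47, 10.39 and 10.34 in KO high DOX, against 9.50, 9.51 and 9.73 in WT. Mrps16 (-0.31), Mrpl3 (-0.31), Mrpl23 (-0.27), Mrps15 (-0.26) and Mrpl48 (-0.24) were lower. At day 3 the summed plasma cell markers, Irf4 among them, were 29437 to 32770 in KO high DOX, against 26113 to 27041 in WT. Their part was not tested.

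Other lists of genes for the 2 ribosomes and for mitochondria show where the family stands at day 1. Of all genes tested, 33.9% rose and 47.6% fell in WT cells. Of 47 genes for proteins of the cytosolic ribosome, 8 rose and 15 fell in WT cells, with a median of -0.030. The largest rises were those of Rps27l (1.70), Rpl7l1 (1.38) and Rpl14 (1.36), of which the first pair encode relatives of ribosomal proteins, and Rpl12 fell by 0.76. Of 25 genes for ribosome assembly in the nucleolus all 25 rose, with a median of 1.33, led by Nop16 (2.48), and all 25 were lower again at day 3 than at day 1. For these genes the day 1 rise was smaller in KO than in WT in 19 of 25 by the interaction, and in 15 of 25 without both arrays that go against their labels. The 4 proteins of the mitochondrial ribosome under other names all rose: Gadd45gip1 (1.57), Chchd1 (0.93), Ptcd3 (0.87) and Dap3 (0.33).

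The other mitochondrial lists rose by less than the members at the median. Of 77 subunits of oxidative phosphorylation 62 rose and 10 fell (median 0.46), with Ndufa5 (1.51) of complex I, Atp5g1 (1.49) of the ATP synthase and Cox7c (-1.91) of cytochrome c oxidase as examples. Of 22 genes of the import machinery of the outer and inner membranes 20 rose and 2 fell (median 0.81), Timm9 by 1.84 and Tomm40, the pore of the outer membrane, by 1.61. Of 12 translation factors 11 rose and 1 fell (median 0.80), including the elongation factors Tufm (1.60) and Gfm1 (1.59). Of 24 genes for assembly of the mitochondrial ribosome and modification of its RNA 18 rose and 2 fell (median 0.62), Mrm3, an rRNA methyltransferase, by 1.41. Of 19 genes for charging mitochondrial tRNAs 13 rose and 2 fell (median 0.36), and of 9 genes for transcription and replication of mitochondrial DNA 6 rose and 2 fell (median 0.34). Of 9 regulators 4 rose and 5 fell: Pprc1, a coactivator of mitochondrial genes, rose by 1.08, while Myc fell by 1.14.

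**Figure D4:**
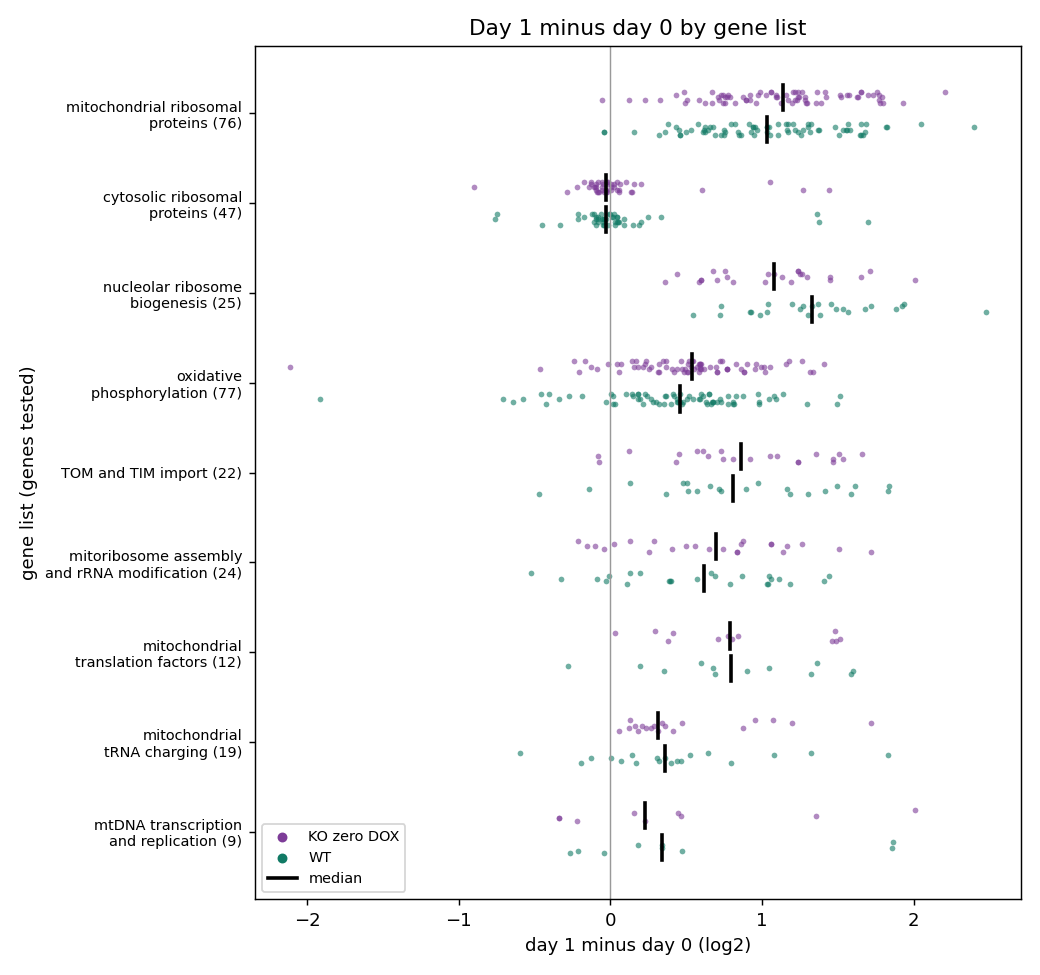
Each point is 1 gene, placed by its day 1 minus day 0 difference (log2), with KO zero DOX (purple) above WT (green) in each of 9 lists and a black bar at the median. The mitochondrial ribosomal proteins centre on 1.14 in KO and 1.03 in WT, and the cytosolic ribosomal proteins on -0.026 and -0.030. Without both arrays that go against their labels the KO medians of these 2 lists were 1.14 and -0.026.

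At day 3 some of the same lists moved with DOX. Of all genes tested, 24.4% were higher and 24.2% lower with high DOX than with zero DOX. With low DOX these shares were 17.6% and 18.2%. The nucleolar list is given for low DOX alone, and the cytosolic and mitochondrial ribosome assembly lists for high DOX alone. Those lists are thus not compared at the same dose. With high against zero DOX, 40 oxidative phosphorylation genes rose and 4 fell (median 0.12), 9 import genes rose and 2 fell (0.14), and all 4 mitochondrial ribosomal proteins with other names rose (0.23), among them Ptcd3 by 0.28. Of the 47 cytosolic ribosomal proteins 1 rose and 4 fell (-0.038). None of the 24 assembly genes rose and 5 fell (-0.047), with the pseudouridine synthase family member Rpusd4 lower by 0.54. With low against zero DOX, 39 oxidative phosphorylation genes rose and 2 fell (0.12), 13 import genes rose and 1 fell (0.20), and 20 of the 25 nucleolar assembly genes rose (0.29). Atp5g1 rose by 0.52 with high and 0.49 with low DOX, and Uqcr11, of complex III, by 0.51 and 0.46.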

How the data were processed

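Intensities were deposited on a linear scale, 1 per probe set and array. The authors had normalized these intensities in D-Chip with its model of perfect-match probes alone, according to the series text. MAS5 is also named in the submitters' processing notes, with no role given. The 64 control sets among the 45101 probe sets were excluded. The platform annotation from GEO held 1 symbol for 34945 sets, several for 932 and none for 9160, and 34741 of the first kind matched a RefSeq gene of GRCm38.p6. Tested sets exceeded the table median of 188.2 on at least 3 of 30 arrays, and the set of highest mean stood for each gene, giving 12183 genes. After adding 16, log2 was taken. In limma 3.58.1 under R 4.3.3 (lmFit, contrasts.fit and eBayes), all 30 arrays entered a single fit of 10 group means with 20 residual degrees of freedom, and Benjamini-Hochberg adjustment was made within each comparison. The median residual SD was 0.099 over all genes and 0.063 over the members. A difference is always the first-named group minus the second, in log2 units, and the number of arrays limits its precision. The script was tested on simulated data.

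The members, the gene lists, the tests and the alternatives were chosen with earlier results of these data known. Named genes are, in each comparison, the 5 largest rises and falls among called members whose 3 arrays did not overlap (interactions by size), a panel of 10 structural members, and up to 4 called genes with the largest change in each other list. For the largest rises and falls, separation of the arrays compared was thus a condition of naming and not a result. Kinases, assembly factors and pseudogenes that matched a list's name pattern were removed by name. Promoter windows were read from RefSeq (GRCm38.p6).

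Per the series text, 2 replicates of each group were processed in parallel and 1 at another time, but which is not given, and whether KO cultures share mice is not given. Deviations of same-numbered arrays correlated at -0.16 to 0.80 over 54 pairs, above 0.1 in 35, and above 0.1 for every pair in 10 of 18 comparisons. These 10 were the comparisons within KO cells, at 0.34 to 0.80. Pairs of KO and WT arrays lay at -0.16 to 0.093. Whether same-numbered KO cultures came from the same mouse was not tested, and the main fit did not pair them.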

Additional observations from a re-analysis of the deposited data

Results flagged for a closer look

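By the interaction of genotype and day in limma, the change over day 0 differed between KO zero DOX and WT cells for 22 members at day 1 and 22 at day 3. Each is 28.9% of the members, against 43.9% of all genes at day 1 and 25.9% at day 3. The 17 instances given here are the largest in each direction. Values are the KO change minus the WT change on the log2 scale, with adjusted p-values over 12183 genes.

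At day 1 the change was more positive in KO for Mrpl49 by 0.62 (adjusted p = 0.00015), for Mrpl58 by 0.44 (0.0005), for Mrps31 by 0.42 (0.0009), for Mrpl22 by 0.35 (0.00049) and for Mrpl39 by 0.35 (0.028). It was smaller in KO for Mrps6 by -0.70 (adjusted p = 0.00014), for Mrpl19 by -0.29 (0.0025) and for Mrps7 by -0.21 (0.011). The calls of Mrps31, Mrpl22 and Mrpl39 were lost when each array was centred on its median. Without both day 1 arrays that go against their doxycycline labels, the values were 0.60, 0.41, 0.39, 0.35, 0.36, -0.71, -0.28 and -0.22 in the order given, and all 8 remained called. Both Mrpl49 and Mrps31 started lower in KO at day 0, and Mrps6 started higher there.

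At day 3 the change was more positive in KO for Mrpl49 by 0.76 (adjusted p = 2.3e-05), for Mrps31 by 0.51 (0.00023), for Mrpl40 by 0.46 (3.2e-05), for Mrpl24 by 0.41 (0.00034) and for Mrpl1 by 0.39 (0.0016). It was smaller in KO for Mrpl54 by -0.43 (adjusted p = 0.00058), for Mrps6 by -0.36 (0.031), for Mrpl57 by -0.26 (0.031) and for Mrps27 by -0.21 (0.034). Mrpl40, a large subunit protein, read 11.09, 11.00 and 10.90 in KO zero DOX at day 3, against 10.80, 10.78 and 10.83 in WT, and 9.88, 9.69 and 9.84 in KO at day 0, against 10.06, 10.13 and 10.03 in WT. The genotypes did not overlap at either day, and their order was opposite. The calls of Mrpl57 and Mrps27 were lost with arrays centred, and that of Mrpl54 when its probe sets were averaged. Both interactions share their day 0 arrays.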

How the results depend on the processing

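Of 243 pairs of a named gene and a comparison, 171 passed the threshold under every alternative run. With each array centred on its median the number of members called was 17 for KO zero DOX against WT at day 0, 38 at day 1, 18 for KO high DOX against WT at day 1 (reversed split), 11 for the interaction at day 1 (reversed split), 12 for the interaction at day 3 and 0 for high against zero DOX at day 1. Centring moved the all-gene median of WT day 1 against day 0 to 0.0092, where it was -0.15 before. With no filter on low values high against zero DOX at day 1 gave 0 and high against low DOX at day 3 gave 4. Without both day 1 arrays that go against their labels high against zero DOX at day 1 gave 0. Centring turned Mrpl43 in WT day 3 against day 1 to -0.0028. Averaging all probe sets of a gene turned Mrpl58 in WT day 3 against day 1 to 0.15, Mrpl34 in KO zero DOX day 3 against day 1 to -0.028 and Mrpl15 in KO zero DOX day 3 against day 0 to 0.22. The cause was not tested.

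Leaving out 1 array at a time gave 13 to 18 calls for KO zero DOX against WT at day 1, 12 to 21 at day 3, 0 to 0 for high against zero DOX at day 1, 1 to 8 for high against low DOX at day 3 (1 without KO low DOX replicate 3, reversed split), 6 to 16 for KO high DOX against WT at day 1 and 20 to 35 for KO zero DOX against WT at day 0. In the comparisons of days within WT or KO cells these ranges stayed within 1.5 times the reported counts, as they did for both doses against zero DOX at day 3.

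With the replicate number as a block, 6 members were higher and 29 lower for KO zero DOX against WT at day 0, 10 and 13 at day 3, and 20 and 2 for KO high DOX against WT at day 1, so the totals of calls stayed within 1.5 times the reported totals, while the members higher in KO at day 0 doubled to 6, against 3 reported. No total in any other comparison moved by over 1.5 times. A replicate block within each genotype, added after seeing the data, gave 2 calls for high against zero DOX at day 1, and 6 higher and 21 lower members for KO zero DOX against WT at day 0. A pseudocount of 1 and quantile normalization kept every count within 1.5 times. All representative probe sets, chosen for the highest mean, read above the table median on all 30 arrays. Signal over background thus limits these sets little, and precision is set by the 3 arrays per group.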
